A study of Mus musculus with 6 samples.

Results

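PRDM9 and the histone H3 lysine 9 (H3K9) methyltransferases write or read the chromatin marks that accompany the first stages of meiosis. Their 7 genes, chosen by name as the hotspot genes Prdm9 and Zcwpw1 and the H3K9 methyltransferase genes Suv39h1, Suv39h2, Ehmt1, Ehmt2 and Setdb1, were followed in leptotene/zygotene (L/Z) spermatocytes with and without Eef1g. They were 7 of the 54532 genes counted, and 7 of 7 had enough reads to be tested among the 8513 genes tested. In Eef1g-cKO L/Z spermatocytes, Suv39h1 mRNA was 2.90-fold higher and Ehmt2 mRNA was 4.28-fold lower than in controls, and both differences passed the test. The other 5 genes did not pass it, with log2 fold changes between -0.49 (Suv39h2) and 0.84 (Prdm9).

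PRDM9 binds DNA through an array of zinc fingers and methylates H3K4 and H3K36 on the nucleosomes beside its binding sites, which marks the places where meiotic DNA breaks are made. ZCWPW1 is a reader that binds nucleosomes carrying both of these marks and is needed for the repair of the breaks. H3K9 methylation is the mark of silent chromatin: SUV39H1 and SUV39H2 write its trimethyl form at pericentric heterochromatin, EHMT1 (GLP) and EHMT2 (G9a) act as a heterodimer that writes the mono- and dimethyl forms in euchromatin, and SETDB1 writes the trimethyl form at retroelements and, in spermatocytes, on the unsynapsed sex chromosomes.

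RNA was measured in 6 libraries from testes at 12 days postpartum (dpp), 3 labelled wild type (control) and 3 labelled Eef1g-cKO. In the Eef1g-cKO males, internal exons of Eef1g, which codes for the eEF1G subunit of the eEF1 complex that elongates peptide chains, were deleted on a C57BL/6J background by a Cre driven by Stra8 (Stra8-GFPCre), which acts in male germ cells from type A1 spermatogonia onwards; the controls were littermates. L/Z spermatocytes were sorted by flow cytometry, so each library is bulk RNA of a sorted fraction, in which fewer cells of a type and less RNA per cell cannot be told apart. The labels do not say which libraries came from separate animals, so p-values measure the spread between these libraries.

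The libraries held between 763133 (Eef1g-cKO 3) and 2617648 (Eef1g-cKO 2) reads. Levels are given as CPM, the reads of a gene per 1000000 reads of a library after TMM scaling. A count of 3 reads corresponded to between 1.18 and 4.63 CPM, and such limits cover counting error only, since the kit used no molecular identifiers. Eef1g itself stood at 222, 226 and 212 CPM in controls 1 to 3 and at 139, 151 and 119 CPM in Eef1g-cKO 1 to 3, and its log2 fold change was -0.68 ± 0.20 (SE; adjusted p = 0.0290 in edgeR's quasi-likelihood test, with Benjamini-Hochberg adjustment as for every adjusted p here). Reads from the exons outside the deletion enter this count, and the call was lost without control 1, 2 or 3 and without Eef1g-cKO 1, with log2 fold changes of -0.75 to -0.56 when 1 library was left out. It was also lost with an offset for GC content (-0.42, edgeR adjusted p = 0.191), with the replicate block (-0.69, adjusted p = 0.0585), with both (-0.43, adjusted p = 0.257) and with no filter on low counts (-0.64, adjusted p = 0.0837). The sorted fractions also differed in marker mRNA, although the paper reported comparable enrichment of L/Z spermatocytes in both genotypes by immunostaining of sorted cells. Calls over all genes tested were 7.8% higher and 6.01% lower in Eef1g-cKO, as background for the marker counts. Of 10 L/Z markers (such as Sycp3 and Dmc1), 9 were tested and 7 were higher in Eef1g-cKO, and their summed level was 9899 to 11346 CPM in controls and 21392 to 28284 CPM in Eef1g-cKO. Of 12 spermatogonial markers (such as Kit and Stra8), 7 were tested and 6 were lower, with sums of 1947 to 2402 and 985 to 1211 CPM. Of 8 Sertoli cell markers, 5 were tested and 3 were lower, with sums of 198 to 468 and 62.7 to 88.0 CPM. Of 6 stromal markers, 3 were tested and 2 were lower, with sums of 104 to 219 and 12.4 to 47.0 CPM. Of 9 pachytene and later markers, 2 were tested and 1 was lower, with sums of 25.7 to 44.2 and 3.09 to 17.8 CPM and with Adam3 and Acrv1 at 0 in every library. Leydig cell markers (0 of 5 tested, Hsd3b1 and Cyp17a1 at 0) summed to at most 10.7 CPM and blood markers (1 of 6 tested, not called, Cd68 and Csf1r at 0) to at most 75.7 CPM. The part of these shifts in the values of the 7 genes was not tested.

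Of the 2 hotspot genes, Prdm9 (ENSMUSG00000051977, GRCm38 chromosome 17, 15543079 to 15564354, minus strand) carries the zinc finger array as a tandem repeat in its coding sequence. In the longest GENCODE transcript of Prdm9, of 3460 bases, 11 units of 84 bases followed each other over 924 bases, 26.7% of the transcript. Units were 94.0% to 100% identical to each other (median 96.4%) and differed at 7 of their 84 positions. The first 2 units, from the GENCODE transcript of the reference strain, are shown because a read of 150 bases falls into such near-copies of 1 gene; capitals mark the positions that vary among the 11 units.
Prdm9 repeat unit 1: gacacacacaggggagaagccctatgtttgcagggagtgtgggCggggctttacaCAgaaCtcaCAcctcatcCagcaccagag
Prdm9 repeat unit 2: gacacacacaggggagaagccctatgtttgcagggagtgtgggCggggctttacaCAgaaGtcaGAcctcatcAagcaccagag

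How reads with several alignments were counted is not stated in the sources used here, and the part of the array in the Prdm9 value was not tested. Prdm9 was measured at 42.0, 66.7 and 40.3 CPM in controls 1 to 3, from 55, 127 and 72 reads, and at 75.2, 55.3 and 144 CPM in Eef1g-cKO 1 to 3, from 93, 141 and 93 reads. The high mean of the Eef1g-cKO group came from library 3, the shallowest, while Eef1g-cKO 2 lay below control 2, so the groups overlapped. The means were 49.7 ± 14.8 and 91.4 ± 46.3 CPM (SD, n = 3 each), and the log2 fold change of 0.84 ± 0.36 (SE; 95% interval 0.08 to 1.59) missed the threshold after adjustment (edgeR adjusted p = 0.137). Without Eef1g-cKO 2 it was 1.13 and passed (edgeR adjusted p = 0.0453), and without Eef1g-cKO 3 it was 0.41 (adjusted p = 0.459). With limma-voom and sample weights it was 0.54 (limma adjusted p = 0.214).

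Zcwpw1 (ENSMUSG00000037108, chromosome 5, 137787798 to 137822621, plus strand) followed the same order of libraries in the Eef1g-cKO group. It stood at 102, 80.3 and 67.7 CPM in controls 1 to 3 and at 120, 99.2 and 184 CPM in Eef1g-cKO 1 to 3. Eef1g-cKO 3 was again the highest library and Eef1g-cKO 2 again the lowest of its group, just under control 1. With means of 83.2 ± 17.1 and 134 ± 44.1 CPM (SD, n = 3 each), the log2 fold change was 0.67 ± 0.28 (SE; 95% interval 0.09 to 1.25; edgeR adjusted p = 0.120). Without Eef1g-cKO 3 it was 0.43 (edgeR adjusted p = 0.292). Exons of Pilra on the other strand covered 8.21% of its exonic bases, and whether the counting used strand is not stated in the sources used here. By mass spectrometry, the paper reported ZCWPW1 among the proteins reduced in Eef1g-cKO L/Z spermatocytes. That is a measure of protein, whereas the values here are of mRNA.

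Among the H3K9 methyltransferase genes, Suv39h1 and Ehmt2 were the pair that passed the test, in opposite directions. The 250 bases before the start of each gene are shown as the sequence context of these 2 results, from RefSeq (GRCm38.p6) on the strand of the gene. All 7 genes matched a RefSeq start. Prdm9, Zcwpw1, Suv39h1 and Ehmt2 had 2 such windows each, and only the one nearest the GENCODE start was searched. Capitals mark matches, on either strand, to a CCAAT box (CCAAT, written ATTGG on the other strand), a core of the NRF1 site (TGCGCA) or an E-box (CACGTG).
Suv39h1, chrX:8074761-8075010, minus strand: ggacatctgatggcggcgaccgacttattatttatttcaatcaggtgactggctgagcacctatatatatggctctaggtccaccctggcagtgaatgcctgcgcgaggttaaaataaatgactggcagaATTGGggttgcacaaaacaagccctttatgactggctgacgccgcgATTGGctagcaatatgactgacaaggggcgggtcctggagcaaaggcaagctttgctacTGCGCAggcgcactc
Ehmt2, chr17:34898224-34898473, plus strand: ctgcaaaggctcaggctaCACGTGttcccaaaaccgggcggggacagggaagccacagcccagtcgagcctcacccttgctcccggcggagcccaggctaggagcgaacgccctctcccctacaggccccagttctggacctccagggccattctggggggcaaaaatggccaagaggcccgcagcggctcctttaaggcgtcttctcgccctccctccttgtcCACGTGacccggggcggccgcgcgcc

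The window of Suv39h1 had a GC content of 51.6% and an observed over expected CpG ratio of 0.668, and that of Ehmt2 had 67.6% and 0.640, against medians of 52.4% and 0.373 over the 32817 RefSeq windows of this length. The last 5 bases of the Ehmt2 window lie inside the gene as GENCODE annotates it. CCAAT was found in 33.8% of all windows and in those of Prdm9, Suv39h1 and Setdb1. TGCGCA was found in 6.42% of all windows and in those of Zcwpw1, Suv39h1 and Ehmt1, and CACGTG in 6.02% of all windows and, among the 7 genes, in that of Ehmt2. Of the other motifs searched on both strands, TGACGT (6.46% of windows) was found in that of Suv39h2, GCGGGAA (3.82%) in those of Prdm9 and Suv39h2, and TGATGCA (2.68%) in none of the 7. No motif was shared by the windows searched for Suv39h1 and Ehmt2. A match here is a description of the letters and not a binding site.

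Suv39h1 (ENSMUSG00000039231, chromosome X, 8061171 to 8074760, minus strand) was measured at 19.1, 26.8 and 13.4 CPM in controls 1 to 3, from 25, 51 and 24 reads, and at 60.6, 74.9 and 34.0 CPM in Eef1g-cKO 1 to 3, from 75, 191 and 22 reads. Every Eef1g-cKO library lay above every control library, with Eef1g-cKO 3 closest to the controls. Suv39h1 rose from 19.8 ± 6.69 to 56.5 ± 20.8 CPM (SD, n = 3 each), and its log2 fold change was 1.54 ± 0.41 (SE; 95% interval 0.67 to 2.41; edgeR adjusted p = 0.0178), which placed it above 98.5% of the genes tested. It was the 1 of the 7 genes called higher, where 7.8% of all genes tested were called higher, and 3.42% were with an added limit of a log2 fold change over 1, which Suv39h1 also passed. The call was lost without control 1 (log2 fold change 1.53, edgeR adjusted p = 0.0688), without control 3 (1.32, adjusted p = 0.104) and without Eef1g-cKO 2 (1.29, adjusted p = 0.0862). The antisense gene Gm14820 overlaps 14.6% of the exonic bases of Suv39h1, and without a stated strand setting reads within this overlap cannot be assigned to either gene.

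Suv39h2, the testis-enriched paralog (ENSMUSG00000026646, chromosome 2, 3455815 to 3475031, minus strand), lay on the other side. It stood at 111, 101 and 108 CPM in controls 1 to 3, from 146, 192 and 193 reads. In Eef1g-cKO 1 to 3 it stood at 76.0, 81.2 and 69.5 CPM, from 94, 207 and 45 reads. The groups did not overlap, with every Eef1g-cKO library below every control (107 ± 5.44 against 75.6 ± 5.84 CPM; SD, n = 3 each). The spread within each group was not compared with counting error. The log2 fold change of -0.49 ± 0.25 (SE; 95% interval -1.02 to 0.04) missed the threshold (edgeR adjusted p = 0.223). Groups of control and Eef1g-cKO CPM that did not overlap were found in 16.4% of all genes tested with Eef1g-cKO higher and in 18.1% with it lower, against 1 (Suv39h1) and 2 (Suv39h2 and Ehmt2) of the 7 genes. Exons of Dclre1c and Gm13184 on the other strand covered 9.98% of the exonic bases of Suv39h2.

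Because both SUV39H enzymes write the same mark, their transcripts were also compared within each library as a ratio of levels per length, which no scaling of libraries can change. There were 6.98, 4.50 and 9.61 Suv39h2 transcript levels per Suv39h1 level in controls 1 to 3 and 1.50, 1.30 and 2.44 in Eef1g-cKO 1 to 3. All 3 Eef1g-cKO ratios were below all 3 control ratios, and Suv39h2 was the more abundant of the 2 in all 6 libraries. On the log2 scale the ratio was 2.75 ± 0.55 in controls and 0.75 ± 0.48 in Eef1g-cKO (SD, n = 3 each), a difference of -2.00 (two-sided exact permutation p = 0.1, the smallest that 3 libraries against 3 allow).

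Ehmt2 (ENSMUSG00000013787, chromosome 17, 34898469 to 34914052, plus strand) was measured at 58.0, 35.7 and 53.2 CPM in controls 1 to 3, from 76, 68 and 95 reads, and at 4.85, 16.1 and 12.4 CPM in Eef1g-cKO 1 to 3, from 6, 41 and 8 reads. Every Eef1g-cKO library lay below every control, although both the lowest and the shallowest rest on fewer than 10 reads. Ehmt2 fell from 49.0 ± 11.7 to 11.1 ± 5.72 CPM (SD, n = 3 each), and its log2 fold change was -2.10 ± 0.48 (SE; 95% interval -3.11 to -1.08; edgeR adjusted p = 0.00692). It was the 1 of the 7 genes called lower, where 6.01% of all genes tested were called lower, and 4.96% were with an added limit of a log2 fold change under -1, which Ehmt2 also passed. No annotated gene overlaps Ehmt2. Its longest transcript had the highest GC content of the 7 genes, 60.8% against 41.3% to 51.2%. With an offset for GC content the log2 fold change was -1.57 (edgeR adjusted p = 0.0373), with the replicate block and that offset -1.60 (adjusted p = 0.0627), and without control 1 it was -1.95 (adjusted p = 0.0534).

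**Figure D1:**
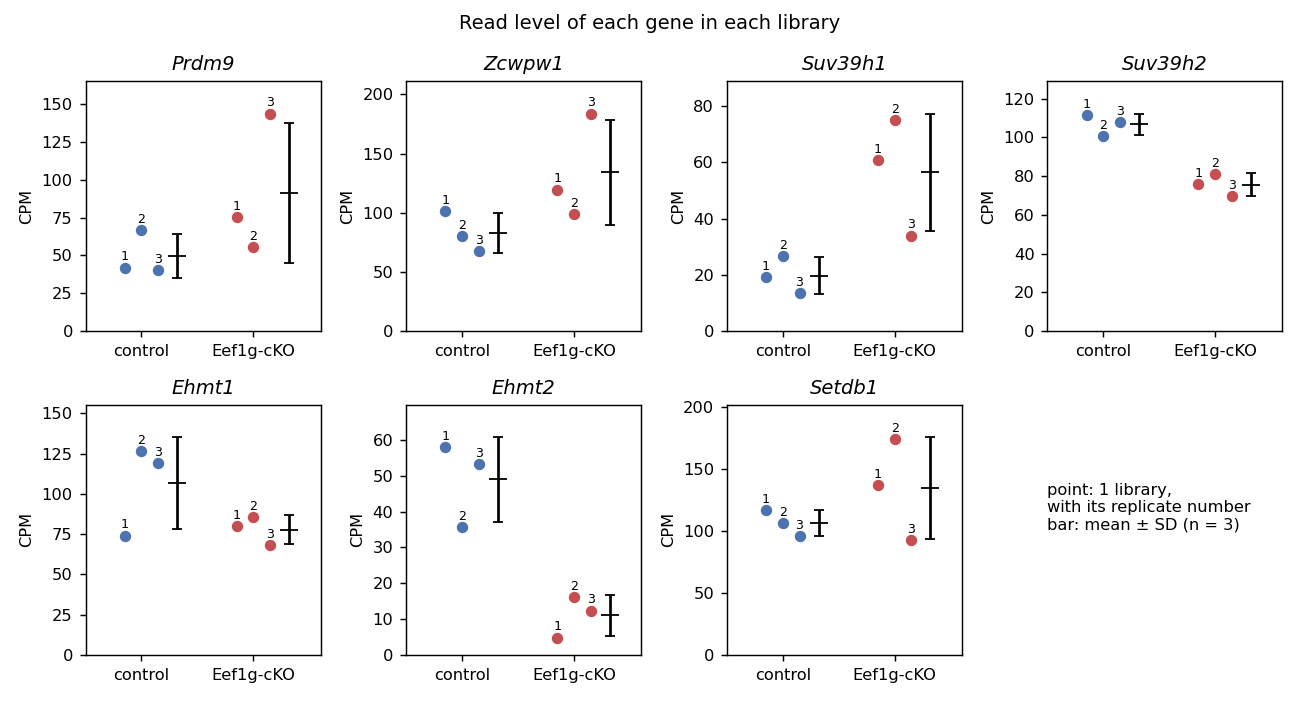
Level of each gene in CPM (vertical axes from 0), with 1 point per library labelled by its replicate number, controls in blue, Eef1g-cKO in red, and the mean ± SD of 3 libraries beside each group. Suv39h1 (19.8 against 56.5 CPM), Suv39h2 (107 against 75.6 CPM) and Ehmt2 (49.0 against 11.1 CPM) are the genes whose groups do not overlap.

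Ehmt1 (ENSMUSG00000036893, chromosome 2, 24789928 to 24919614, minus strand), which encodes the partner of EHMT2 in the heterodimer, was measured at 74.0, 127 and 119 CPM in controls 1 to 3 and at 80.1, 85.5 and 68.0 CPM in Eef1g-cKO 1 to 3. Control 1 lay within the Eef1g-cKO range and the other controls above it. The means were 107 ± 28.4 and 77.8 ± 8.97 CPM (SD, n = 3 each) and the log2 fold change was -0.45 ± 0.28 (SE; 95% interval -1.03 to 0.13; edgeR adjusted p = 0.316). With an offset for GC content it was -0.22 (edgeR adjusted p = 0.675), and -0.18 with the replicate block added (adjusted p = 0.768).

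The transcript level of Ehmt1 per length was 0.863, 2.40 and 1.52 times that of Ehmt2 in controls 1 to 3 and 11.2, 3.60 and 3.72 times in Eef1g-cKO 1 to 3. Control 1 was the only library with more Ehmt2 than Ehmt1, and Eef1g-cKO 1, with its 6 Ehmt2 reads, had the highest ratio. The log2 ratio was 0.55 ± 0.74 in controls and 2.41 ± 0.93 in Eef1g-cKO (SD, n = 3 each), a difference of 1.86 (two-sided exact permutation p = 0.1, the smallest possible).

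Setdb1 (ENSMUSG00000015697, chromosome 3, 95323525 to 95357202, minus strand) was measured at 117, 107 and 96.3 CPM in controls 1 to 3 and at 137, 174 and 92.7 CPM in Eef1g-cKO 1 to 3. Eef1g-cKO 1 and 2 lay above all controls and Eef1g-cKO 3 below them. The means were 107 ± 10.2 and 135 ± 41.0 CPM (SD, n = 3 each), and the log2 fold change was 0.36 ± 0.25 (SE; 95% interval -0.17 to 0.90; edgeR adjusted p = 0.381). It was 0.14 without Eef1g-cKO 2 (edgeR adjusted p = 0.791) and 0.59 without Eef1g-cKO 3 (adjusted p = 0.0766), and between 0.19 and 0.24 with library totals, upper-quartile scaling or at least 10 reads in every library. The library with the highest Prdm9 and Zcwpw1 was thus the one with the lowest Setdb1. Exons of Gm37500 and Cers2 on the other strand covered 4.73% of the exonic bases of Setdb1.

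**Figure D2:**
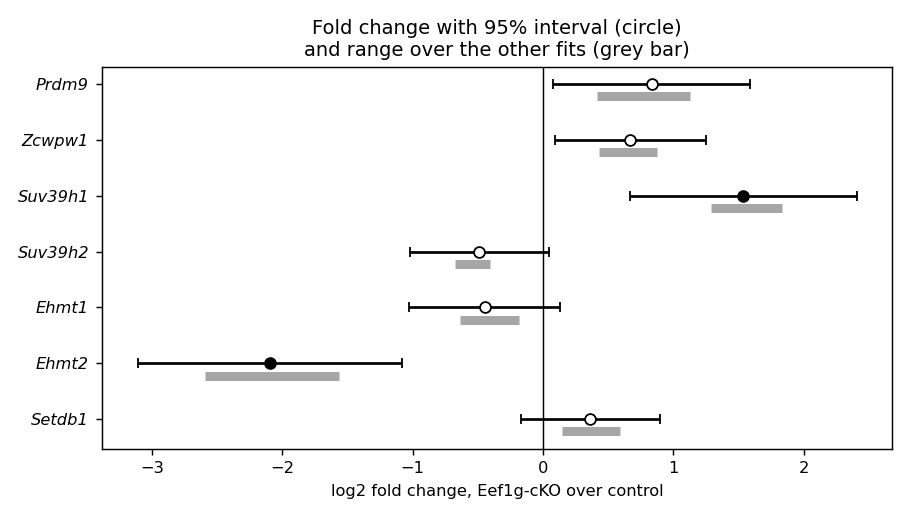
Log2 fold change of each gene, Eef1g-cKO over control (horizontal axis), as a circle with its 95% interval, filled where the adjusted p was under 0.05, and as a grey bar the range over the other fits, including those that left out 1 library. The intervals of Prdm9 (0.08 to 1.59) and Zcwpw1 (0.09 to 1.25) lie above 0 without passing the adjusted threshold, and no grey bar crosses 0.

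Of the 7 genes, 4 had a positive and 3 a negative log2 fold change, with a median of 0.36 against -0.05 for all genes tested. The order of levels per length (RPKM, CPM per kilobase of the deposited gene length) differed between the groups. In controls it ran from Suv39h2 (24.2 ± 1.23 RPKM; SD, n = 3 here and below) through Setdb1 (15.5 ± 1.50), Zcwpw1 (14.6 ± 3.00), Ehmt1 (13.1 ± 3.50), Prdm9 (11.5 ± 3.43) and Ehmt2 (8.92 ± 2.14) to Suv39h1 (3.75 ± 1.27). Among neighbours in this order, the ranges of the 3 libraries were apart for Suv39h2 and Setdb1 and for Ehmt2 and Suv39h1, and the 4 other pairs overlapped. In Eef1g-cKO it ran from Zcwpw1 (23.6 ± 7.75 RPKM) through Prdm9 (21.2 ± 10.8), Setdb1 (19.7 ± 5.98), Suv39h2 (17.1 ± 1.32), Suv39h1 (10.7 ± 3.94) and Ehmt1 (9.59 ± 1.10) to Ehmt2 (2.02 ± 1.04), with ranges apart for Suv39h2 and Suv39h1 and for Ehmt1 and Ehmt2. The last place was held by Suv39h1 in controls and by Ehmt2 in Eef1g-cKO.

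The summed level of the 5 H3K9 methyltransferase transcripts was 65.6, 65.6 and 65.5 RPKM in controls 1 to 3. It was 59.6, 71.5 and 46.4 RPKM in Eef1g-cKO 1 to 3, so the groups overlapped (two-sided exact permutation p = 0.5). Whether the control sums lay closer together than counting error would allow was not tested. Within this sum the share of Suv39h1 was 5.72% ± 1.93 in controls and 17.7% ± 3.29 in Eef1g-cKO, and the share of Ehmt2 was 13.6% ± 3.26 and 3.48% ± 1.77 (SD, n = 3 each). Suv39h2 made up 36.9% ± 1.88 and 29.6% ± 4.17 and Setdb1 23.7% ± 2.26 and 32.8% ± 3.30. The shares of these 4 genes did not overlap between the groups (exact permutation p = 0.1 each, the smallest possible), whereas those of Ehmt1, at 20.0% ± 5.35 and 16.4% ± 1.67, did (exact permutation p = 0.4). The shares of a sum depend on each other, and in CPM the groups of Setdb1 overlapped. With the sum, 6 such quantities were tested, none of which can pass 0.05 with 3 libraries against 3.

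**Figure D3:**
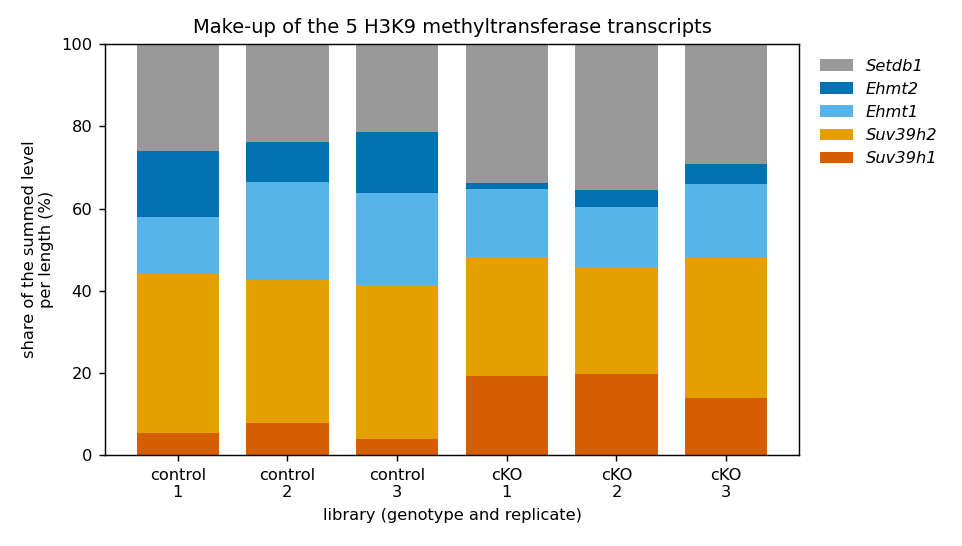
Make-up of the summed level per length of the 5 H3K9 methyltransferase transcripts in each library (vertical axis, share in %, bars to 100%), with controls on the left and Eef1g-cKO (cKO) on the right. The Suv39h1 segment at the bottom is 3.89% to 7.75% in controls and 13.9% to 19.9% in Eef1g-cKO, and the Ehmt2 segment is 9.92% to 16.1% and 1.48% to 4.86%.

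The partners and opponents of these enzymes were counted from fixed lists of 49 genes in the table, of which 44 were tested, 7 were higher and 3 lower in Eef1g-cKO, where 7.8% of all genes tested were higher and 6.01% lower. A positive log2 fold change was found for 31 of the 44 (median 0.32) and for 4044 of the 8513 genes tested (median -0.05). These shares of 7.8% and 6.01% are the background of each count of listed genes that follows. Among the hotspot partners, 2 of 6 tested were higher and 0 lower. Log2 fold changes were positive for 4 and negative for 2 of the 6, from -1.38 to 0.85. Hells, the remodeller that opens chromatin with PRDM9, rose from 1490 ± 54.0 to 2050 ± 76.6 CPM (SD, n = 3 each; log2 fold change 0.46, edgeR adjusted p = 0.0219). Ankrd31, which is needed for break formation on the pseudoautosomal region, rose from 311 ± 11.4 to 506 ± 142 CPM (0.69, edgeR adjusted p = 0.0194). Morc2b was not tested, with at most 5.60 CPM in any library.

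Of 14 other H3K4 and H3K36 writers and their subunits, 2 were higher and 0 lower in the edgeR test (median log2 fold change 0.28), against the 7.8% and 6.01% of all genes. Kmt2c, an H3K4 methyltransferase of enhancers, rose from 209 ± 9.17 to 478 ± 57.4 CPM (SD, n = 3 each; log2 fold change 1.20, edgeR adjusted p = 0.000157), and Nsd2, an H3K36 methyltransferase, rose by 0.65 on the log2 scale (edgeR adjusted p = 0.0278). Of the 5 H3K4 demethylases tested, Kdm5a rose by 0.62 on the log2 scale (edgeR adjusted p = 0.0351), while Kdm1b fell by 1.26 (adjusted p = 0.0374) and Kdm5b fell by 0.62 (adjusted p = 0.0390).

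On the H3K9 side, 1 of 11 tested partners of the methyltransferases was higher and 0 were lower in the edgeR test, a share close to the 7.8% of all genes. The 1 gene was Mphosph8, a subunit of the HUSH silencing complex that works with SETDB1, which stood at 741, 561 and 490 CPM in controls 1 to 3 and at 1054, 966 and 2093 CPM in Eef1g-cKO 1 to 3 (log2 fold change 1.19, edgeR adjusted p = 0.0178). Of the genes of the HP1 proteins, which bind methylated H3K9, Cbx3 (HP1 gamma) fell from 114 ± 3.20 to 45.7 ± 18.1 CPM (SD, n = 3 each; log2 fold change -1.33, edgeR adjusted p = 0.00880). Cbx1 (0.51, edgeR adjusted p = 0.0633) and Cbx5 (0.29, adjusted p = 0.559) had the opposite sign and did not pass. Of 5 tested H3K9 demethylases, Phf8 was the 1 that passed (log2 fold change 0.92, edgeR adjusted p = 0.0142), and the low counts of Kdm4a, Kdm4b and Kdm4d kept them out of the test.

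Of these 10 called genes, Kmt2c and Cbx3 passed in all 17 other fits, and the other 8 kept their sign in all 17 but lost the call without at least 1 library. Mphosph8 lost it without control 2, Phf8 without control 2, control 3 or Eef1g-cKO 2, and Kdm5a without control 2, control 3 or Eef1g-cKO 3. Hells, Ankrd31, Nsd2, Kdm1b and Kdm5b lost it without any 1 of the controls, and Nsd2, Kdm1b and Kdm5b also without Eef1g-cKO 1, and Nsd2 and Kdm5b without Eef1g-cKO 2. Other settings also ended these calls: upper-quartile scaling for Hells, Ankrd31, Nsd2 and Kdm5a, library totals for these 4 and Phf8, and at least 10 reads in every library for Hells, Nsd2 and Kdm5a. The GC offset ended those of Hells, Ankrd31, Nsd2, Kdm5a, Kdm5b and Mphosph8, the replicate block those of Hells, Nsd2, Kdm5a, Kdm5b and Kdm1b, both together those of the 6 genes of the GC offset and Kdm1b, and no filter on low counts that of Kdm5b. Without control 1, 2 or 3, the lists held 4, 1 and 2 higher genes and 1 lower gene each. The log2 fold change of Hells was 0.26 when library totals alone were used and 0.17 with the GC offset.

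**Figure D4:**
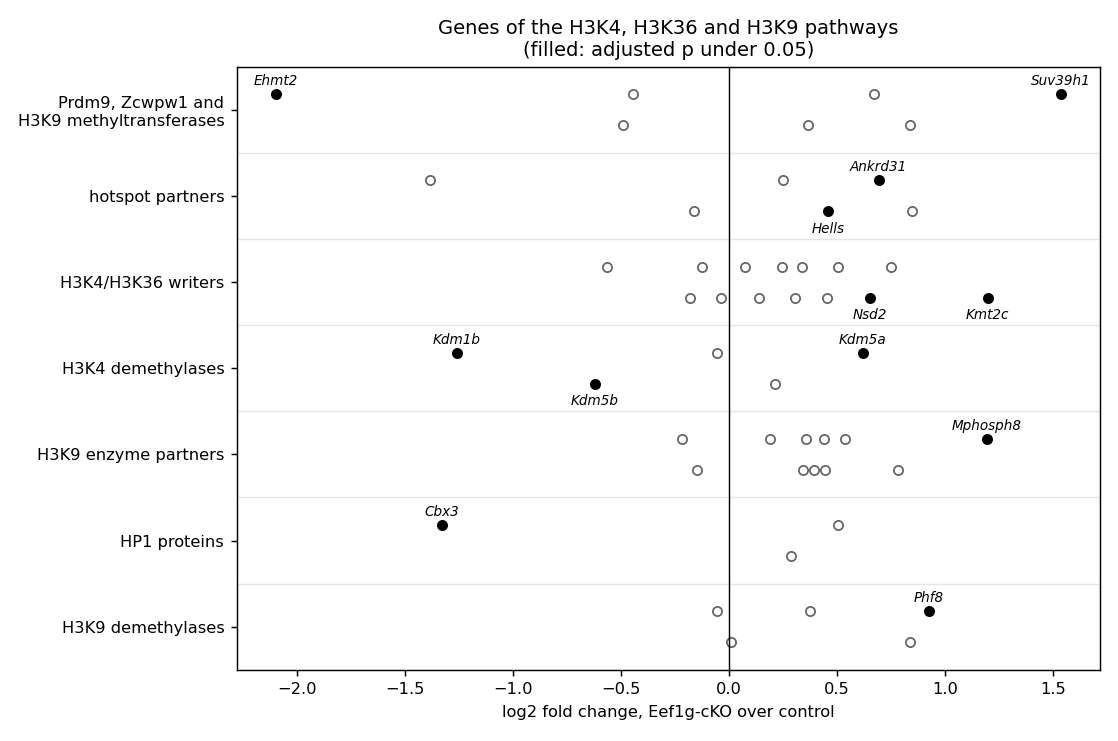
Log2 fold change of each tested gene, Eef1g-cKO over control (horizontal axis), in rows for the 7 genes and for each list of partners, other writers, HP1 proteins and demethylases, with genes past an adjusted p of 0.05 filled and named. Of the 44 genes outside the first row, 7 filled points lie above 0 and 3 below, and Suv39h1 (1.54) and Ehmt2 (-2.10) lie further out than any of them.

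The genes whose levels followed each of the 7 most closely over the 6 libraries were listed by Pearson's r of log2 CPM among 4708 genes that averaged 50 reads or more, as a description, since all share the same libraries and genotypes. For Prdm9 they were Bptf (r = 0.994), Cep85 and Apaf1, and for Zcwpw1 Pspc1 (0.993), Edem1 and Snrnp70. For Suv39h1 they were Nlk (r = 0.995), Arl6ip6 and Lin28b, and for Suv39h2 Rpl37 (0.995), Bub3 and Nsmce4a. For Ehmt1 they were Ints8 (r = 0.972), Trank1 and Hs6st2, for Ehmt2 Marcks (0.999), Lsm4 and Ppp2r2d, and for Setdb1 Pdha2 (0.993), Peg3 and Fgd6. No gene appeared among the 3 closest of more than 1 of the 7.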

How the data were processed

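Polyadenylated RNA of sorted L/Z spermatocytes from 12 dpp testes was converted to full-length cDNA, amplified by a low-input kit and sequenced as paired-end reads of 150 bases. Per the labels and the study's methods, the authors filtered reads with fastp, aligned them to GRCm38 (mm10) with HISAT2 and counted them with featureCounts, and the submitters' processing notes also name DESeq2. The deposited values are raw counts per Ensembl gene for 6 samples, neither normalised nor pooled. Count columns were matched to samples by name, and 0 columns were left unused. No 2 libraries agreed within sampling noise (lowest chi-square per degree of freedom 6.37).

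Genes were kept with filterByExpr (minimum count 10, minimum total 15), which left 8513 genes and 98.1% of reads. Libraries were TMM-scaled and tested with edgeR 4.0.16 (R 4.3.3), robust quasi-likelihood, genotype as the only term, Benjamini-Hochberg adjustment over all genes tested and a threshold of 0.05. CPM and RPKM used the TMM-scaled sizes and the deposited gene lengths, which equalled the exon union in GENCODE mouse release M21 for all 7 genes. Alternatives were other scalings, filters, DESeq2 1.42.0, limma 3.58.1 (voom), a GC offset, the replicate block and leaving out each library. The scripts were tested on simulated data before use. There the main fit called 26.3% of the genes set at an absolute log2 fold change of 1. It called 68.4% of those set at 2, and 6.25% of its calls were unchanged genes.

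The 7 genes and all lists were chosen with earlier results of these data known. All 7 genes were named, together with every listed partner that passed the test (up to 6 a list), the 3 genes closest to each of the 7, and Eef1g. Protein sequences were not used here.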

Additional observations from a re-analysis of the deposited data

How the results depend on the processing

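Each of the 7 genes kept the sign of its log2 fold change in every other fit that tested it (11 alternatives and 6 fits that left out 1 library; Ehmt2 in 10 alternatives, since a filter of at least 10 reads in every library left it untested). Suv39h1 ranged from 1.37 to 1.73 over the 11 alternatives and passed in all (edgeR, DESeq2 or limma adjusted p 0.00199 to 0.0496), and Ehmt2 from -2.33 to -1.57 (adjusted p 0.000800 to 0.0627). Leaving out 1 library, the ranges were 0.41 to 1.13 for Prdm9, 1.29 to 1.84 for Suv39h1 and -2.59 to -1.70 for Ehmt2; the libraries that decided a call were named with those genes. The replicate block gave 1.50 for Suv39h1 (edgeR adjusted p = 0.0286) and -2.15 for Ehmt2 (edgeR adjusted p = 0.0191), and with the GC offset Ehmt2 was -1.60 and did not pass. Same-numbered libraries did not deviate together over the genes tested (correlations -0.04, 0.02 and -0.05). The labels give only a replicate number, and whether same-numbered libraries shared a litter or a sort was not tested.

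Counts moved more. Of the 7 genes, 0 were lower with at least 10 reads in every library and 0 with the replicate block and GC offset, and without 1 library 0 to 1 were higher and 0 to 1 lower. Pathway genes higher numbered 3 with upper-quartile scaling, 2 with library totals, 4 with at least 10 reads, 4 with the replicate block, 4 with the block and GC offset and 2 with the fold limit, and those lower 1 with the block and 1 with the block and GC offset; without 1 library they were 1 to 9 and 1 to 3. Of all genes, 664 were higher and 512 lower; 333 were higher with library totals, 291 higher with the fold limit and 303 lower with the block and GC offset, and without 1 library 374 to 834 were higher and 238 to 668 lower. Over the genes tested in both fits, log2 fold changes differed from the main fit gene by gene. The median difference was -0.19 with library totals, -0.12 with upper-quartile scaling and -0.14 with the filter of 10 reads. Single partner genes were described with their values. Depth limits Ehmt2 most of the 7 genes, since 2 of its libraries held 6 and 8 reads. A gene that missed the threshold was not shown to be unaffected.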
